A study of Mus musculus with 6 samples.

Results

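The genes described here are 10 transcripts by which the inhibitory interneurons of the mouse cortex are sorted into subtypes. They are Pvalb, Sst, Vip, Cort, Npy, Tac2, Crh, Cck, Nos1 and Reln. Their rows were taken from the deposited gene table by exact match of the gene symbol, which found 10 of 10 among the 38087 genes listed, and no measured value entered the choice. Messenger RNA was sequenced from the cerebrum of 6 mice whose strain is labelled C57BL6, 24 months old and not treated. The tissue was described as including cortex and hippocampus, with the olfactory bulb, cerebellum and medulla taken off. The 3 Sgo1-/+ mice lacked 1 working copy of Sgo1 in the whole body, and the 3 WT mice carried both copies. Sgo1 (shugoshin 1) protects the cohesion of sister chromatids, and Sgo1-/+ mice are used as a model of chromosome instability. WT replicate 1 and Sgo1-/+ replicate 2 were male and the other 4 mice female. Sequencing run 258 held all WT libraries and run 259 all Sgo1-/+ libraries, and for this reason genotype and run cannot be told apart.

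Interneurons release GABA and act on neurons close by. Cells born in the medial ganglionic eminence of the embryo mostly become Pvalb cells, which fire fast and contact cell bodies, or Sst cells, which contact dendrites; cells from the caudal eminence become Vip cells, which mainly inhibit other interneurons, and the Reln, Cck and further groups. Most members encode a precursor from which a neuropeptide is cut and which is released beside GABA. None of these transcripts is made by cortical interneurons alone: Pvalb is also abundant in cerebellar Purkinje and molecular layer cells and in the brain stem, Reln in cerebellar granule cells, and Cck in cortical pyramidal cells.

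Neuropeptide genes are known for cAMP response elements close to the start of transcription, the sequence through which neuronal activity and the factor CREB act on Sst. The promoters of 9 of the 10 members were found in the RefSeq table of mouse build GRCm38.p6, all but that of Crh. The 120 bases before the annotated start are printed for Sst, Vip, Cort and Cck, the members whose window held the core of this element. Pvalb is printed as a window without it, picked after its values were seen. Capitals mark every match to TGACG or, on the other strand, CGTCA, and in Sst the overlapping matches form the palindrome TGACGTCA. The windows lie at chr16:23890845-23890964 (minus strand) for Sst, chr10:5639098-5639217 (plus strand) for Vip, chr4:149126764-149126883 (minus strand) for Cort, chr9:121495695-121495814 (minus strand) for Cck and chr15:78206401-78206520 (minus strand, the first of 2 listed starts) for Pvalb.
Sst: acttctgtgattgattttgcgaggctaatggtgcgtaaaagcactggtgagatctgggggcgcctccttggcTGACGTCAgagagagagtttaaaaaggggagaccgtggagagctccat
Vip: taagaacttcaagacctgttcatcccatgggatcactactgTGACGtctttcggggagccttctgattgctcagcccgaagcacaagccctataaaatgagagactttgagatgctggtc
Cort: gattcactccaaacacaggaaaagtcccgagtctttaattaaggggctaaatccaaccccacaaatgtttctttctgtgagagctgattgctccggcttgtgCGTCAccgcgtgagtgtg
Cck: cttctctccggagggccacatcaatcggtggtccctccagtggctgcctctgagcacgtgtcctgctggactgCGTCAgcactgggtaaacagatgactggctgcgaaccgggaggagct
Pvalb: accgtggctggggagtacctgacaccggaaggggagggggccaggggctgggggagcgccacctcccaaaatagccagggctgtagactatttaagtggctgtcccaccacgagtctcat
The match began 48 bases before the start in Sst, 79 in Vip, 18 in Cort and 47 in Cck. Of all 32851 promoters in the table, 11.7% held a match to either form in a window of this length and 1.24% held the palindrome. No match was present in this window of Pvalb (either start), Npy, Tac2, Nos1 or Reln. Of these, Npy and Tac2 were lowest in WT replicate 1 in the data below, as were Sst, Vip, Cort and Cck. A match is a description of the letters and was not tested as a binding site.

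The targeted gene did not serve as a check of the labels. Sgo1, listed under its older symbol Sgol1, was close to the limit of counting in all mice, with 0, 7 and 0 estimated counts in the WT libraries and 4, 2 and 0 in the Sgo1-/+ libraries. Library totals were 11123917 to 12505561 counts, a depth at which no genotype difference in so rare a transcript could be detected. Values are given in the order of replicates 1 to 3 throughout. The labelled tissue was checked with genes of pyramidal neurons and of other brain regions. WT replicate 1 stood apart. All 9 cortical pyramidal genes that could be read were lowest in it, with a summed normalized count of 7353 against 50825 to 65527 in the other 5 libraries, and Tbr1 stood at 48.7 there. All 12 cerebellar genes were highest in it, summing to 32635 against 2835 to 3845, led by Car8 (6568) and Rgs8 (6322). Brain stem genes summed to 6676 against 523 to 994, led by Slc6a5 (2653) and Slc17a6 (2134). Thus the tissue label of cerebrum went against the defining genes of WT replicate 1. The members' fold changes, shares and the overlap of their ratios are given below with and without this library. Olfactory bulb genes also varied among the other libraries, whose bulb was described as taken off. They summed to 2955 and 2261 in WT replicates 2 and 3 and to 1695, 513 and 334 in Sgo1-/+.

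The members divided WT replicate 1 from the other libraries in both directions. It lay outside the range of the other 5 libraries for 10 of 10 members, where 58.3% of all 16337 tested genes did so. It was also at least 2-fold from their median for 7 of 10 members, against 12.4% of tested genes. Pvalb, Crh, Nos1 and Reln were highest in it, while Sst, Vip, Cort, Npy, Tac2 and Cck were lowest. The part of the region genes in these values was not tested.

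**Figure D1:**
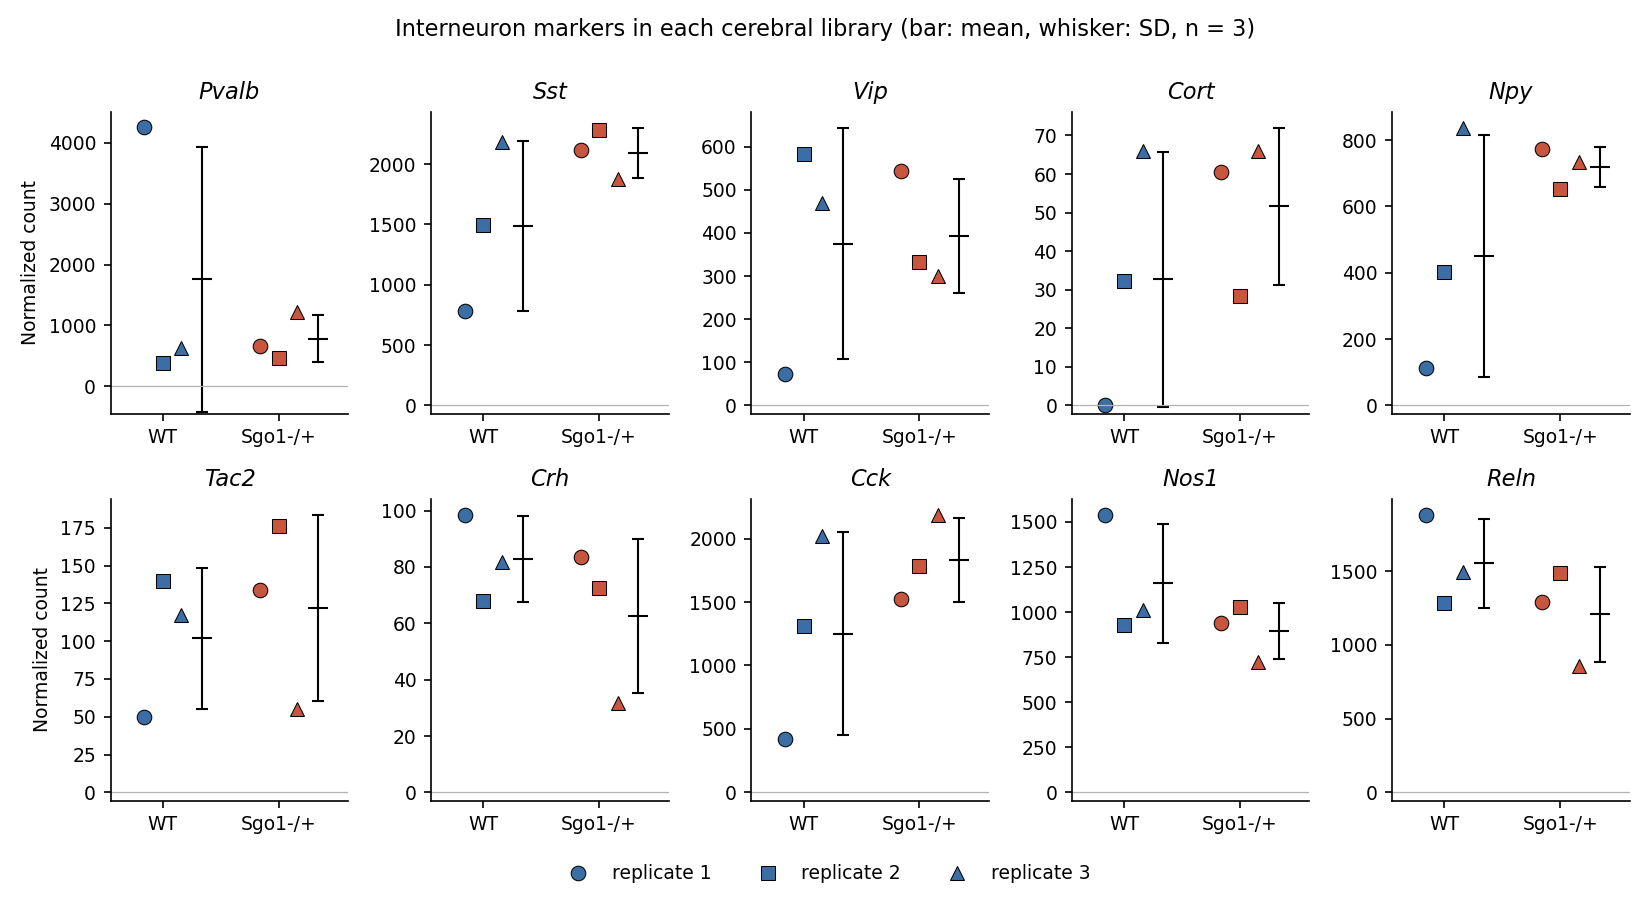
Normalized counts (vertical axes, linear) of the 10 members in each library, WT in blue and Sgo1-/+ in red, with symbols for replicates 1 to 3 and the mean ± SD (n = 3) at the right of each group. WT replicate 1 (blue circle) is the highest library for Pvalb, Crh, Nos1 and Reln and the lowest for the other 6 members.

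The question of the comparison was whether loss of 1 copy of Sgo1 altered these transcripts in the aged cerebrum. No member differed between genotypes by more than the spread of the replicates. In edgeR's quasi-likelihood test over all 16337 genes, 0 of 10 members passed an adjusted p under 0.05, and the adjusted p was 0.9999 for each of them. The background is 0%, since 0 of 16337 genes passed, so the members' count says nothing particular about them. At an unadjusted p under 0.05 stood 0 of 10 members and 2.04% of tested genes. DESeq2, edgeR's likelihood ratio test and limma likewise called 0 of 10 members. The normalized counts of the groups overlapped for 10 of 10 members, whereas 6.85% of tested genes had groups without overlap. When the 6 libraries were regrouped in all 20 ways, exact permutation tests (two-sided) gave the members p of 0.3 to 1, and 0.1 is the smallest that 3 against 3 libraries allow. These are bulk samples, in which fewer cells of a type and less RNA per cell cannot be told apart.

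The highest level belonged to Sst. Levels were compared between genes as RPKM (reads divided by exon length and library size), a scale that allows for transcript length. The median over the 6 libraries was 229 for Sst, 105 for Cck, 102 for Npy and 51.2 for Pvalb. The other 6 members were lower, with medians of 9.78 for Vip, 7.56 for Tac2, 7.25 for Nos1, 5.67 for Cort and 4.84 for both Crh and Reln. Sst exceeded Cck in 6 of 6 libraries. Of the neighbours in this order only Pvalb and Vip had ranges that did not overlap, and Cck and Npy, like the neighbours from Vip down to Reln, did not differ beyond their spread. In WT replicate 1 the order was another, with Pvalb first at 339 RPKM and Sst at 90.0.

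Pvalb encodes parvalbumin, the calcium buffer of fast-spiking cells (ENSMUSG00000005716, chr15:78191114-78206400, mm10, minus strand). Normalized counts of Pvalb were 4260, 383 and 619 in WT and 667, 468 and 1211 in Sgo1-/+. WT replicate 1 was 6.88 times the median of the other 5 libraries, Sgo1-/+ replicate 3 was the next highest, and the groups overlapped. The log2 fold change of Sgo1-/+ over WT was -1.16 ± 0.893 (SE), and it changed sign to 0.64 ± 0.391 without WT replicate 1. In Sgo1-/+ replicate 3 genes of the thalamus also stood higher than in the other Sgo1-/+ libraries. They summed to 6856 against 2839 to 3091, with Prkcd at 2114. In WT they summed to 7868, 3594 and 3018, so that WT replicate 1 was the highest of all libraries. The part of the thalamus genes in the Pvalb values was not tested.

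The 3 tested genes whose pattern over the 6 libraries was most like that of Pvalb were Lpo, St18 and Nefh. Their centred log2 CPM differed from that of Pvalb by a root mean square of 0.242, 0.262 and 0.290. Nefh, the heavy neurofilament subunit of large axons, had normalized counts of 5426, 746 and 1010 in WT and 932, 998 and 1537 in Sgo1-/+. As in Pvalb, WT replicate 1 was far above the rest and Sgo1-/+ replicate 3 came next.

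Sst encodes somatostatin, an inhibitory peptide (ENSMUSG00000004366, chr16:23889581-23890844, minus strand). Its normalized counts were 783, 1492 and 2186 in WT and 2114, 2286 and 1878 in Sgo1-/+. The Sgo1-/+ libraries lay close together, the WT libraries were spread, and WT replicate 3 fell among the Sgo1-/+ values. For Sst the log2 fold change was 0.49 ± 0.337 (SE), and 0.19 ± 0.171 without WT replicate 1. Outside WT replicate 1, Sst varied little, with a coefficient of variation of 15.9% over 5 libraries against 31.8% over 6.

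Cplx2, Car11 and Ap1s1 followed Sst most closely, at root mean square differences of 0.0549, 0.0607 and 0.0733. Cplx2 encodes complexin 2, a regulator of synaptic vesicle fusion. It had normalized counts of 6768, 12319 and 17929 in WT and 16548, 17588 and 14979 in Sgo1-/+. Its lowest library was again WT replicate 1, followed by WT replicate 2.

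Cort encodes cortistatin, a peptide related to somatostatin that binds the same receptors (ENSMUSG00000028971, chr4:149125034-149126763, minus strand). Normalized counts of Cort were 0, 32.2 and 65.9 in WT and 60.4, 28.4 and 65.9 in Sgo1-/+. No read was counted in WT replicate 1, where up to 3 counts (3.02 normalized) would be compatible with a count of 0, so the mean of the other 5 libraries, 50.6, was at least 16.7-fold higher. The log2 fold change was 0.65 ± 1.02 (SE), and 0.07 ± 0.458 without WT replicate 1.

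Npy encodes neuropeptide Y, found in neurogliaform cells and many Sst cells (ENSMUSG00000029819, chr6:49822710-49829507, plus strand). Its normalized counts were 113, 402 and 836 in WT and 772, 653 and 734 in Sgo1-/+. WT replicates 1 and 2 were below every Sgo1-/+ library and WT replicate 3 above every one, so the groups overlapped. For Npy the log2 fold change was 0.68 ± 0.597 (SE), and 0.22 ± 0.272 without WT replicate 1.

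Nos1 encodes neuronal nitric oxide synthase, the enzyme of a small set of long-range Sst and Npy cells and of many cerebellar interneurons (ENSMUSG00000029361, chr5:117781032-117958840, plus strand). Normalized counts of Nos1 were 1538, 930 and 1012 in WT and 940, 1027 and 724 in Sgo1-/+. Apart from WT replicate 1 at the top and Sgo1-/+ replicate 3 at the bottom, the libraries were close together. The log2 fold change was -0.37 ± 0.225 (SE), and -0.11 ± 0.154 without WT replicate 1.

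Vip encodes vasoactive intestinal peptide, the marker of interneurons that inhibit other interneurons (ENSMUSG00000019772, chr10:5639218-5647614, plus strand). Its normalized counts were 72.4, 582 and 470 in WT and 544, 333 and 300 in Sgo1-/+. WT replicate 1 held 0.154 times the median of the other libraries, and among the remaining 5, Sgo1-/+ replicates 2 and 3 were lowest. For Vip the log2 fold change was 0.07 ± 0.655 (SE), and it changed sign to -0.42 ± 0.253 without WT replicate 1. Genes of the olfactory bulb, whose granule and periglomerular cells share many genes with caudal eminence cells, ran in the same direction outside WT replicate 1, with sums of 768, 2955 and 2261 in WT and 1695, 513 and 334 in Sgo1-/+. Their part in the Vip value was not tested.

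The patterns most like that of Vip were those of B230208B08Rik, Nov and Rab40b, at root mean square differences of 0.151, 0.178 and 0.186. Nov, a secreted matricellular protein also called CCN3, had normalized counts of 201, 1291 and 1085 in WT and 1338, 922 and 583 in Sgo1-/+. Its lowest library was WT replicate 1 and its second lowest Sgo1-/+ replicate 3, the same pair as in Vip.

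Crh encodes corticotropin-releasing hormone, made by a part of the Vip cells in the cortex and by neurons of the hypothalamus and inferior olive (ENSMUSG00000049796, chr3:19693401-19695396, minus strand). Normalized counts of Crh were 98.4, 67.8 and 81.8 in WT and 83.7, 72.5 and 31.6 in Sgo1-/+. A single library, Sgo1-/+ replicate 3, was well below the others. The log2 fold change was -0.40 ± 0.374 (SE), and -0.25 ± 0.401 without WT replicate 1.

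Tac2 encodes neurokinin B, present in some Vip cells and in the habenula (ENSMUSG00000025400, chr10:127724478-127731767, plus strand). Its normalized counts were 49.8, 140 and 117 in WT and 134, 176 and 55.3 in Sgo1-/+. Each group held 1 library far below the other 2. For Tac2 the log2 fold change was 0.25 ± 0.509 (SE), and it changed sign to -0.08 ± 0.422 without WT replicate 1.

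Cck encodes cholecystokinin, carried by basket cells and also by many pyramidal cells (ENSMUSG00000032532, chr9:121489825-121495689, minus strand). Normalized counts of Cck were 422, 1313 and 2018 in WT and 1523, 1788 and 2185 in Sgo1-/+. WT replicate 1 was lowest, WT replicate 2 next, and WT replicate 3 stood among the Sgo1-/+ libraries. The log2 fold change was 0.55 ± 0.496 (SE), and 0.14 ± 0.212 without WT replicate 1.

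Reln encodes reelin, a large secreted glycoprotein of layer 1 and Sst cells (ENSMUSG00000042453, chr5:21884454-22344702, minus strand). Its normalized counts were 1879, 1284 and 1495 in WT and 1288, 1484 and 854 in Sgo1-/+. Its extremes were those of Nos1, with WT replicate 1 highest and Sgo1-/+ replicate 3 lowest. For Reln the log2 fold change was -0.36 ± 0.233 (SE), and -0.20 ± 0.216 without WT replicate 1. Exons of Reln overlap Gm10475 on the opposite strand, listed at normalized counts of 5.54 to 10.7, and exons of Nos1 overlap an antisense gene (ENSMUSG00000098072); whether the counting used strand was not stated, so reads of each pair cannot be told apart.

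Read over the 10 members, 6 log2 fold changes were above 0 and 4 below, with a median of 0.16. Without WT replicate 1, 0 of 10 members and 3.77% of tested genes stood at an unadjusted p under 0.05, the split was 5 and 5, the median was -0.01 and the sign of 3 members turned. The medians over all tested genes were -0.0007 and 0.0055. Leaving out WT replicate 3 left WT replicates 1 and 2 as the WT group. Sst then stood at an unadjusted p of 0.023 and Npy at 0.0289 in edgeR, 2 of 10 members where 6.21% of the genes tested stood under 0.05. With WT replicate 1 left out instead, the unadjusted p in edgeR was 0.311 for Sst and 0.45 for Npy. The adjusted p of each member remained above 0.76 in every fit.

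**Figure D2:**
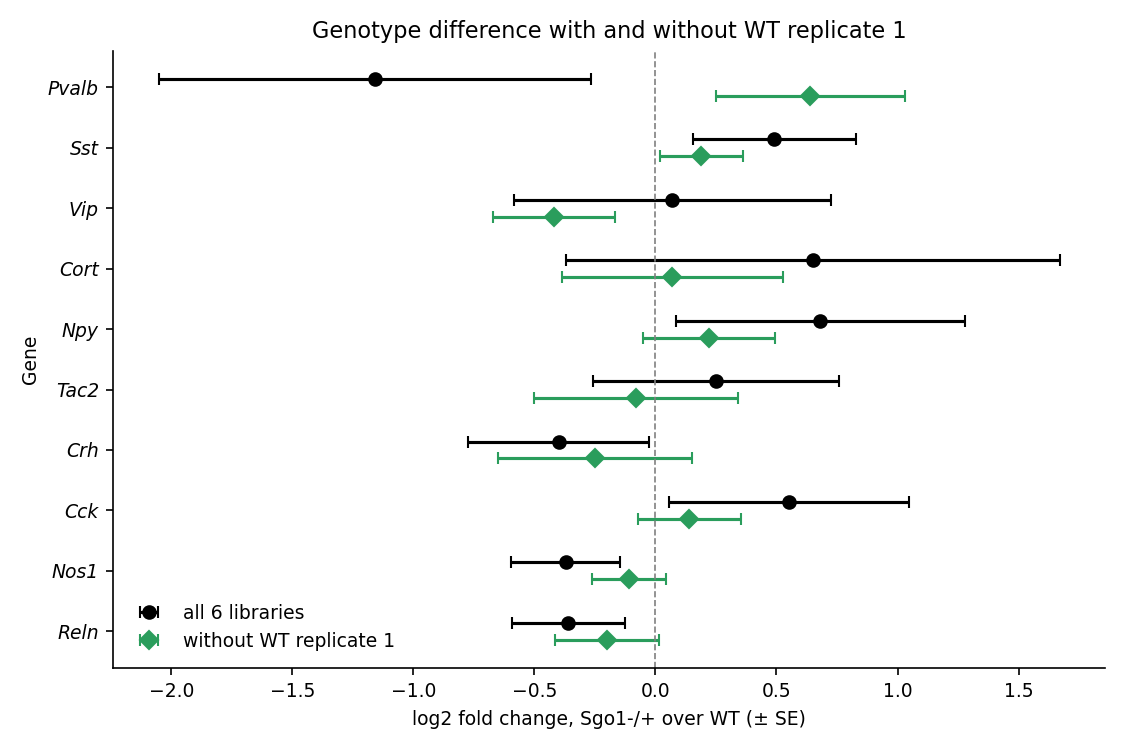
Log2 fold change of Sgo1-/+ over WT (horizontal axis) with its SE for each member, over all 6 libraries (black circles) and without WT replicate 1 (green diamonds). Pvalb moves from -1.16 to 0.64, Vip from 0.07 to -0.42 and Tac2 from 0.25 to -0.08, and the SE becomes smaller for all members but Crh.

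Pvalb, Sst and Vip were compared within each library by their shares of the reads of these 3 genes, which do not depend on the scaling of the library. The shares are not corrected for transcript length and do not count cells. Sst gave most of these reads outside WT replicate 1, with 55.4% to 74.0%. Pvalb gave 15.2% to 35.7% and Vip 8.85% to 23.7% in those 5 libraries. In WT replicate 1 Pvalb gave 83.3% (95% Wilson interval 82.2% to 84.3%, counting error only), Sst 15.3% and Vip 1.42%.

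The shares did not separate the genotypes. The Pvalb share was 39.3% ± 38.2 (SD, n = 3) in WT and 23.7% ± 10.7 in Sgo1-/+ (exact permutation p = 0.8). The Sst share was 47.6% ± 28.1 and 64.3% ± 9.32 (SD, n = 3, exact permutation p = 0.5). The Vip share was 13.1% ± 11.2 and 12.0% ± 3.92 (SD, n = 3, exact permutation p = 1). Without WT replicate 1 the WT means were 17.2% for Pvalb, 63.7% for Sst and 19.0% for Vip.

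**Figure D3:**
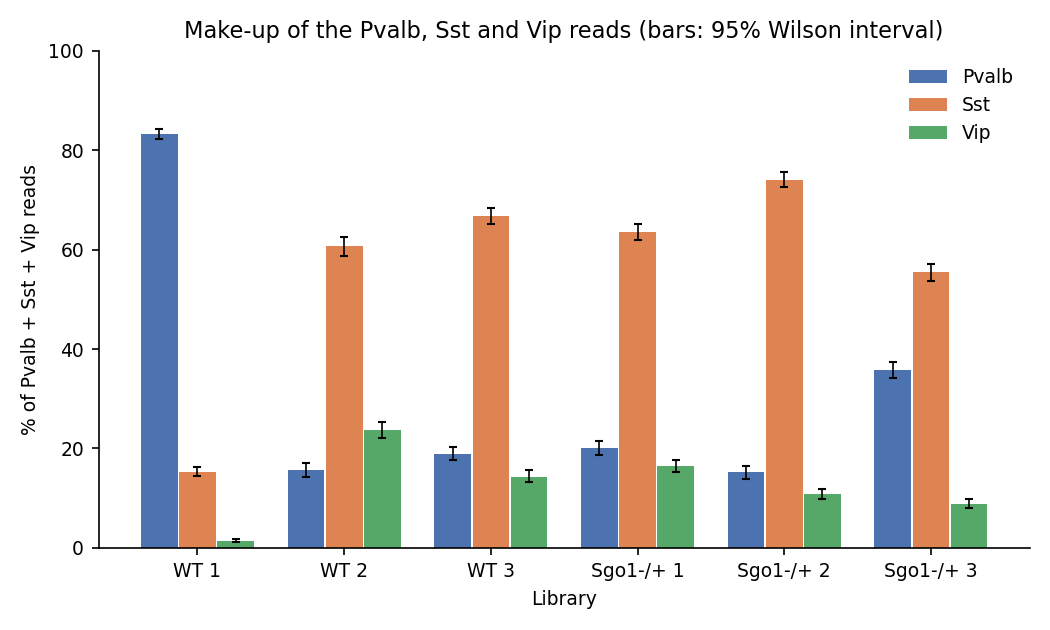
Share of Pvalb, Sst and Vip in the reads of these 3 genes (vertical axis, %) in each library, with 95% Wilson intervals as bars. Sst is the tallest bar in 5 libraries, and Pvalb at 83.3% is the tallest in WT replicate 1.

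The members were then set against the transcripts shared by all GABA neurons. Gad1 and Gad2 encode the 2 enzymes that make GABA, and Slc32a1 encodes its vesicular transporter. Normalized counts of Gad1 were 5132, 9166 and 8365 in WT and 7430, 6838 and 5458 in Sgo1-/+. Gad2 stood at 2647, 5267 and 4231 in WT and 4974, 5023 and 3106 in Sgo1-/+. Both were lowest in WT replicate 1 and next lowest in Sgo1-/+ replicate 3. Slc32a1, at 2127, 2029 and 1921 in WT and 2106, 2280 and 1395 in Sgo1-/+, was not low in WT replicate 1.

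Relative to Gad1 plus Gad2 the groups overlapped for 10 of 10 members, while 3.92% of tested genes had ratios without overlap. Exact two-sided permutation p ranged from 0.2 to 0.9. Without WT replicate 1 they still overlapped for 10 of 10 members, with exact permutation p of 0.2 to 0.9, where 31.5% of tested genes did not overlap. Per 1000 reads of Gad1 plus Gad2 there were 101, 103 and 174 reads of Sst in WT and 170, 193 and 219 in Sgo1-/+. WT replicates 1 and 2 were thus alike on this scale and only WT replicate 3 reached into the Sgo1-/+ range, with a log2 difference of 0.66 between genotypes (exact permutation p = 0.2), or 0.53 without WT replicate 1. Pvalb was not brought together by the ratio, with 548, 26.5 and 49.2 reads in WT and 53.8, 39.5 and 141 in Sgo1-/+, and its log2 difference changed sign from -0.42 to 0.89 without WT replicate 1. Vip had 28.1 to 43.9 reads in 5 libraries and was low in WT replicate 1 alone, with 9.30 reads. Its log2 difference changed sign from 0.54 to -0.14 without that library, while Nos1 turned from -0.29 to 0.19 and Reln from -0.33 to 0.09. Gad1 plus Gad2 itself summed to 7779, 14434 and 12596 in WT and to 12404, 11861 and 8564 in Sgo1-/+. The divisor was thus lower in every Sgo1-/+ library than in WT replicates 2 and 3, but not than in WT replicate 1. Its part in the changes of sign was not tested. Not divided by Gad1 plus Gad2, the log2 fold changes of Nos1 and Reln without WT replicate 1 were -0.11 and -0.20. Reln and Nos1 became even in 5 libraries, at 88.9 to 125 and 64.4 to 86.6 reads, against 242 and 198 in WT replicate 1. The overlap changed when single libraries were left out. Without WT replicate 3 the ratios of 4 members (Sst, Cort, Npy and Cck) were higher in every Sgo1-/+ library than in WT replicates 1 and 2. Here 10.6% of tested genes were without overlap. WT replicate 1 had the lowest ratio of all libraries for these 4 members. The log2 difference was 1.97 for Cort, 1.15 for Npy and 0.86 for Cck over all libraries. Without WT replicate 1 it was 0.39, 0.63 and 0.47. Without Sgo1-/+ replicate 1 the ratio of Sst was higher in Sgo1-/+ without overlap (9.35% of tested genes were without overlap). Without Sgo1-/+ replicate 3 the ratio of Tac2 was (7.96%).

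**Figure D4:**
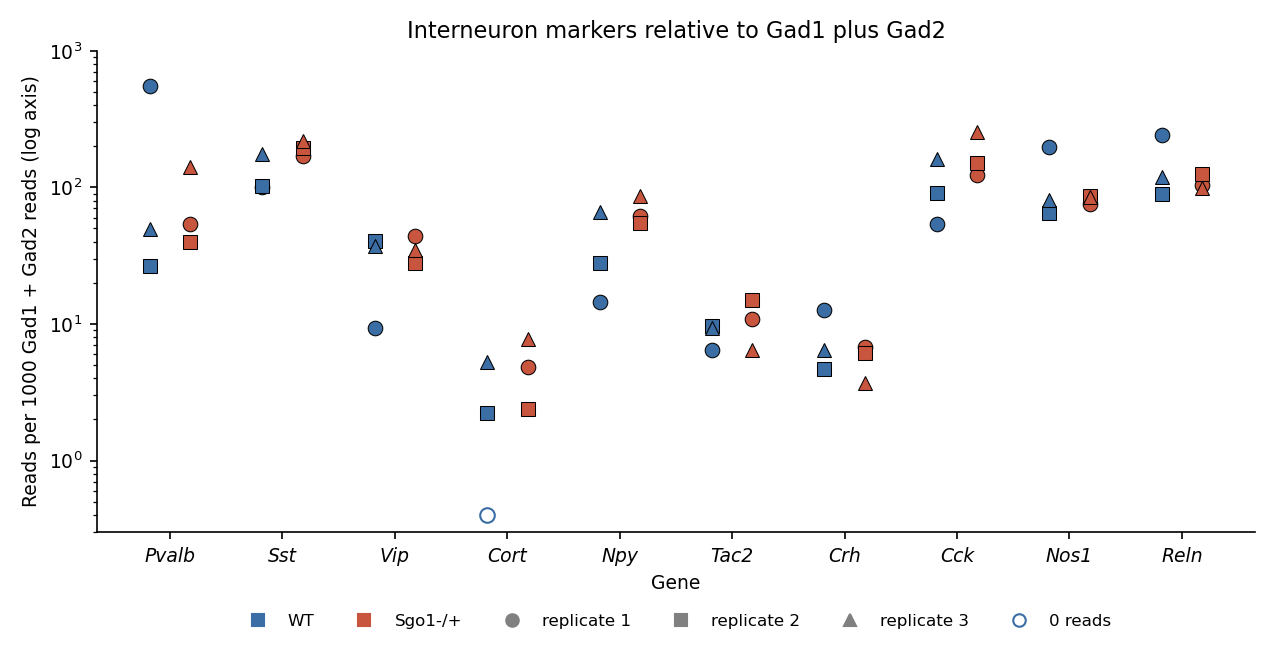
Reads of each member per 1000 reads of Gad1 plus Gad2 (vertical log axis) in WT (blue) and Sgo1-/+ (red), with symbols for replicates 1 to 3 and an open circle, placed at the foot of the axis, for the 0 reads of Cort in WT replicate 1. The groups overlap for all 10 members, and Pvalb in WT replicate 1 lies at 548.

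Some transcription factors of forebrain GABA neurons were read next, named after their values were seen. Lhx6, which Pvalb and Sst cells of the cortex need for their development, had a normalized count of 10.1 in WT replicate 1 and of 209 to 421 in the other libraries. Nkx2-1, its upstream regulator, stood at 0 and at 20.3 to 48.6. Dlx1, a factor of forebrain GABA neurons in general, stood at 18.3 and at 325 to 921. In WT replicate 1 Lhx6 was thus 0.0337 times the median of the other libraries, where Sst was 0.370 times, Pvalb 6.88 times and Slc32a1 1.05 times theirs. The library with the highest count of Pvalb had the lowest counts of Lhx6 and Nkx2-1. Which cells its Pvalb RNA came from was not tested. Of the 12 medial eminence genes, 9 were lowest and 3 highest in WT replicate 1. Those highest were Syt2, Chodl and Kcnc1, at 5.71, 4.97 and 1.7 times the median of the other libraries. Sox6 was lowest but at 0.717 times. Of the 8 genes of GABA identity 6 were lowest there and 1, Maf, was highest at 1.71 times.

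**Figure D5:**
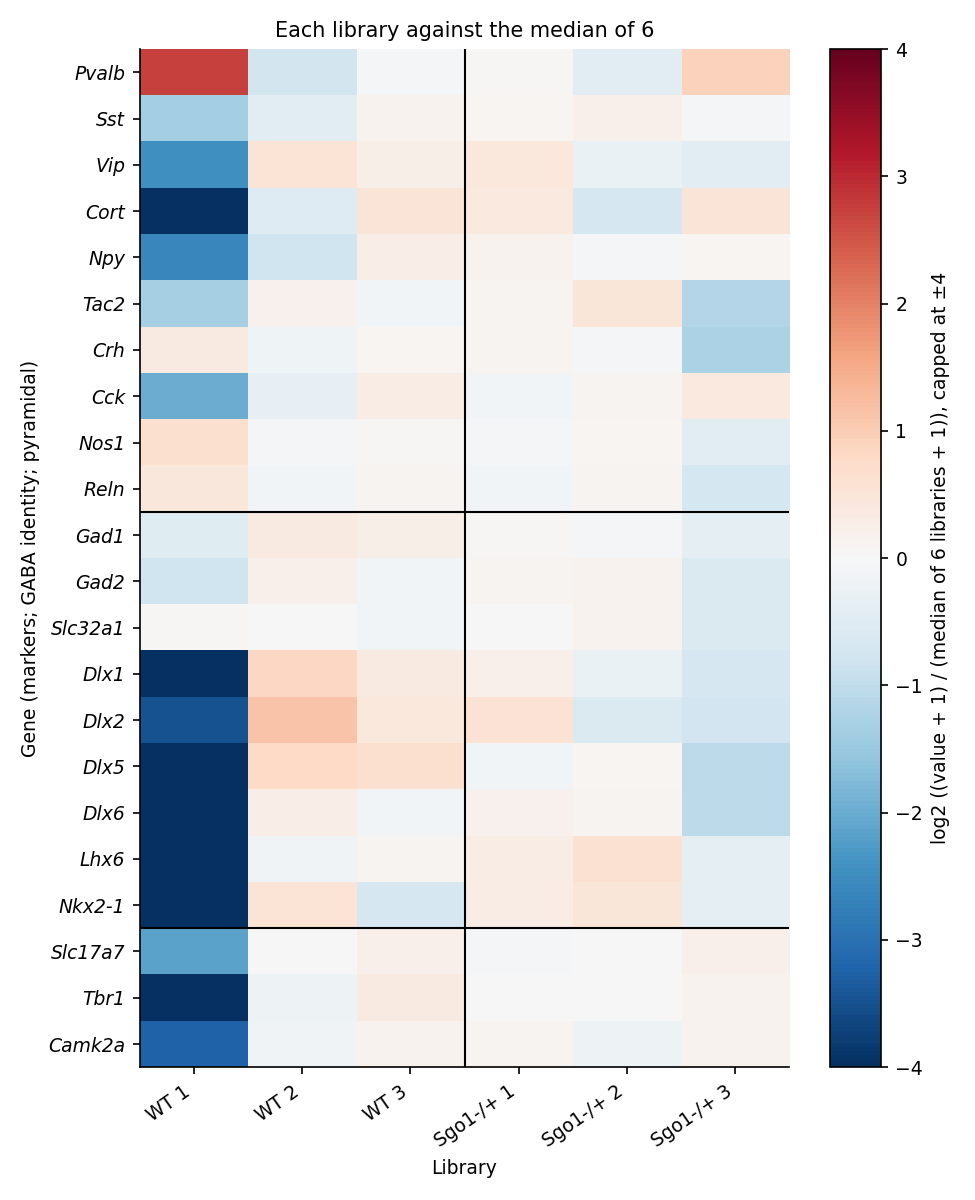
Each library (columns) against the median of the 6 libraries for the members (top block), genes of GABA neurons (middle) and pyramidal genes (bottom), as log2 of (normalized count + 1) over (median + 1), red above and blue below. Only the column of WT replicate 1 holds the deep blue of the Dlx genes and Lhx6 beside the red of Pvalb, while Slc32a1 is near 0 in it.

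Genes linked to the members by function were taken as lists, with 0 genes called at an adjusted p under 0.05 in any of them by edgeR. The background at an unadjusted p under 0.05 is 0.808% of tested genes higher and 1.23% lower in Sgo1-/+. Of 23 receptors and downstream proteins for the members' products, such as the somatostatin receptors Sstr1 to Sstr5, Vipr1 and the reelin receptors Lrp8 and Vldlr, 0 stood under 0.05. The median log2 fold change of these 23 was 0.24, and -0.08 without WT replicate 1. Of the 12 medial eminence genes 0 stood under 0.05, with a median of 0.27, or 0.14 without WT replicate 1. Of the 8 genes of GABA identity 1 did, Maf, a transcription factor of medial eminence cells. Maf had normalized counts of 619, 444 and 375 in WT and 318, 337 and 362 in Sgo1-/+, without overlap, at a log2 fold change of -0.50 ± 0.195 (SE) (edgeR unadjusted p = 0.0375), and at -0.28 without WT replicate 1, where its unadjusted p of 0.0691 was no longer under 0.05.

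Of the 12 caudal eminence genes 1 stood under 0.05 and it was lower in Sgo1-/+. This was Calb2, which encodes calretinin, a calcium buffer of many Vip cells and also of olfactory, thalamic and cerebellar neurons. Its normalized counts were 2346, 1229 and 734 in WT and 710, 478 and 236 in Sgo1-/+. Every WT library was above every Sgo1-/+ library, with a log2 fold change of -1.60 ± 0.519 (SE), or -1.05 without WT replicate 1, and an adjusted p of 0.9999 in edgeR. The olfactory bulb sums given beside Vip ran in the same direction in the libraries other than WT replicate 1.

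Of the 13 genes that process, store and release neuropeptides 1 stood under 0.05 and it was higher in Sgo1-/+. Vgf, the precursor of several secreted peptides, had normalized counts of 1225, 1343 and 1768 in WT and 1862, 2491 and 2151 in Sgo1-/+. The groups did not overlap, with a log2 fold change of 0.59 ± 0.178 (SE), or 0.48 without WT replicate 1, and an adjusted p of 0.9999 in edgeR. The convertases and the carboxypeptidase that cut the members' precursors (Pcsk1, Pcsk2 and Cpe) had log2 fold changes of -0.09, 0.31 and 0.27, and -0.16, -0.02 and 0.02 without WT replicate 1.

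Without WT replicate 1 more of these genes stood at an unadjusted p under 0.05 in edgeR and 0 passed the adjusted threshold. All of the added genes were lower in Sgo1-/+, a direction that 1.91% of tested genes shared at this p. Of the 8 genes of GABA identity 3 did so, namely Gad1 at a log2 fold change of -0.41 ± 0.144 (SE), Dlx1 at -0.80 ± 0.252 and Dlx5 at -1.01 ± 0.326. Of the 12 caudal eminence genes 4 did so, and beside Calb2 these were Sp8 at -1.97, Ndnf at -0.94 and the serotonin receptor gene Htr3a at -0.72. Of the 23 receptors and downstream proteins 1 did so, Vipr2, through which Vip acts, at -1.61 ± 0.652. The receptor gene Vipr1 stood at 0.20 ± 0.166 and was not under 0.05. Of the 12 medial eminence genes 0 did so. Vip itself, at -0.42 ± 0.253, was not among them. Olfactory bulb genes were lower beside them, 7 of 10 at an unadjusted p under 0.05, among them Tbx21 at -2.43 and Eomes at -2.49, and Sp8 belongs to both lists. Their part in these values was not tested.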

How the data were processed

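RNA from the cerebrum of 3 WT and 3 Sgo1-/+ mice, separate animals by their labels, was sequenced as paired reads (TruSeq V2, MiSeq). The authors used Strand NGS to align the reads to mm10, and deposited an estimated count per Ensembl gene and library, not normalized, of which 47.4% to 48.6% were not whole numbers. The authors also deposited log2 values, DESeq-normalized with each gene's median subtracted. The submitters' processing notes name BWA and edgeR without a role; the counter and the use of strand are not given in the sources used here. Deposited columns of the authors' own fold changes were not used. The column names carry a brain number and a library number but no genotype. Genotype was assigned from the brain number by the rule given with the data, and the library number gave the replicate. Under this matching, sex-linked genes matched the labelled sex in 6 of 6 libraries.

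Estimated counts were rounded and fitted with edgeR 4.0.16 in R 4.3.3 (TMM, default filter on low counts, 16337 genes tested, quasi-likelihood test, Benjamini-Hochberg adjustment over all of them, threshold 0.05). The standard error of a log2 fold change is its size over the root of the F statistic. Normalized counts are counts over the TMM-scaled library size, times its mean. RPKM used the union of exons in the mm10 annotation, which holds 36308 of the 38087 IDs. Ratios to Gad1 plus Gad2 used the count plus 1 and an exact permutation test of the log2 ratio. The SD, tests and intervals cover 3 mice per group, and Wilson intervals and the limit of 3 counts for a 0 cover counting error only. DESeq2 1.42.0 and limma 3.58.1 were alternatives. The tests were checked on simulated data, with the same spread for all genes and no library standing apart. That check does not show what the tests could detect in these libraries.

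All 10 members were named. From 13 companion lists the genes at an unadjusted p under 0.05 were named, at most 5 per list. For Pvalb, Sst and Vip the 3 tested genes with the most similar centred log2 CPM were named, among genes with an SD at least 0.5 times the member's. In region lists the 2 most abundant genes of a library standing apart were named. Further genes were named after their values were seen (Vipr2, Sp8, Ndnf, Htr3a, Dlx5, Tbx21 and Eomes, Tbr1, Lhx6, Nkx2-1, Dlx1, Nefh, Cplx2 and Nov among them, and the receptors and convertases). Cux2 was left out because the table lists 2 IDs for it, and 2 genes of the GABA identity list are not reported here, so its counts are over the 8 others. The members and lists were chosen with earlier results of these data known.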

Additional observations from a re-analysis of the deposited data

How the results depend on the processing

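The count of members called was 0 in every one of the 17 fits (Cort was not fitted where at least 10 counts were required in every library), and the count of called genes in the companion lists was 0 in each of their 16 fits, which leave out limma on the authors' normalized values. The fits were DESeq2, edgeR's likelihood ratio test, limma, other size factors, 2 other filters, a term for sex, the replicate block and each library left out in turn (range 0 to 0). Of the 159 alternative fold changes of members, 151 kept their sign and 8 reversed. Without WT replicate 1 these were Pvalb at 0.64, Vip at -0.42 and Tac2 at -0.08, and DESeq2 on the same 5 libraries, a fit chosen after seeing the data, gave 0.64, -0.42 and -0.08. Without Sgo1-/+ replicate 1 Vip was at -0.24, and without Sgo1-/+ replicate 2 Tac2 was at -0.12. The cause was not tested. Over the libraries left out in turn, Pvalb ranged from -1.64 to 0.64, Vip from -0.42 to 0.53 and Tac2 from -0.12 to 0.60. With sex as a term Pvalb stood at -0.28. Relative to Slc17a7, in place of Gad1 plus Gad2, the log2 differences of Sst, Vip and Tac2 reversed to -0.06, -0.19 and -0.45, and Slc17a7 is itself low in WT replicate 1.

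The number of members whose ratios to Gad1 plus Gad2 did not overlap between groups ranged from 0 to 4 when libraries were left out. It was 4 without WT replicate 3, which left WT replicates 1 and 2 (Sst, Cort, Npy and Cck, all higher in Sgo1-/+, where 10.6% of tested genes did not overlap). It was 0 without WT replicate 1, 1 without Sgo1-/+ replicate 1 (Sst, 9.35%) and 1 without Sgo1-/+ replicate 3 (Tac2, 7.96%). The deviations of same-numbered libraries correlated at -0.15, 0.01 and -0.21, and no library correlated best with its own number. With 3 libraries per group, and WT replicate 1 apart in its region genes, such correlations cannot show whether the numbers pair samples. With the replicate number as a block, 0 members were called and Pvalb stood at -0.39, Sst at 0.61, Npy at 1.03 and Cck at 0.79 on the log2 scale. With the numbers as a block on the ratios, 4 members (Sst, Cort, Npy and Cck) had the same sign in 3 of 3 numbers, against 11.5% of tested genes, where the smallest exact sign-flip p is 0.25. The biological coefficient of variation was 25.9% over 6 libraries and 17.6% without WT replicate 1. Across genes, edgeR called 0 of 16337 in the main comparison and 333 stood at an unadjusted p under 0.05, while DESeq2 called 3, the likelihood ratio test 2 and limma 0, and DESeq2 without WT replicate 1 called 23. Depth limits Cort and Crh most, which had the fewest counts of the members.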

Other observations

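Activity-dependent genes were read beside the interneuron genes. Of 13 immediate early genes 13 had a log2 fold change above 0, with a median of 1.02, or 0.65 without WT replicate 1, beside medians of -0.0007 and 0.0055 over all tested genes. Of these 13, 2 stood at an unadjusted p under 0.05 in edgeR and 0 passed the adjusted threshold. Egr1 had normalized counts of 707, 1696 and 1248 in WT and 1905, 3982 and 3745 in Sgo1-/+. Nr4a1 had 276, 700 and 278 in WT and 779, 1373 and 831 in Sgo1-/+. Both sets were without overlap.

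Regions beside the cortex varied from mouse to mouse. Striatal genes summed to 19076 and 24402 in WT replicates 2 and 3, to 30333, 36140 and 15338 in Sgo1-/+ and to 4512 in WT replicate 1, with 0 of 10 under an unadjusted p of 0.05. Hypothalamic genes summed to 384, 1084 and 610 in WT and 1200, 914 and 562 in Sgo1-/+, with 0 of the 7 tested under 0.05. The filter on low counts removed the other 5 hypothalamic genes, among them Pmch and Hcrt. Pmch had normalized counts of 5.05, 5.49 and 2.7 in WT and 0.993, 18.8 and 274 in Sgo1-/+, and Hcrt stood at 101 in Sgo1-/+ replicate 3 and at most at 8.11 elsewhere. Fitted with the filter off, their unadjusted p was 0.0162 and 0.00869 and their adjusted p 0.9499 in edgeR. Of the olfactory bulb genes Eya2 stood under 0.05, at 78.5, 61.6 and 38.5 in WT and 40.7, 10.9 and 13.2 in Sgo1-/+, and its unadjusted p in edgeR went from 0.0334 to 0.0709 without WT replicate 1. Of the thalamic genes Calb2 alone did, and of 9 cortical pyramidal genes 0 did. Among cerebellar genes Cbln1 and Barhl2, and among the 5 brain stem genes tested Slc6a5 and Glra1, stood under 0.05, and each was highest in WT replicate 1, at 2543, 92.9, 2653 and 525. Without WT replicate 1 the unadjusted p of Cbln1, Barhl2, Slc6a5 and Glra1 was 0.296, 0.228, 0.16 and 0.899 in edgeR.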
